A study of Arabidopsis thaliana with 10 samples.

Results

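Whole shoots of Arabidopsis thaliana sampled after 6 hr of dexamethasone (DEX) were compared with shoots sampled at 0 hr. The comparison set 4 of the series' 10 arrays against each other, the 2 labelled 6 hr and the 2 labelled 0 hr. It was made on all probe sets other than the array's own controls. Its p-values came from a fit over all 10 arrays, so the other times also entered the estimate of spread. All plants carried pSHR:SHR-GR, a fusion of SHORT-ROOT with the glucocorticoid receptor expressed from the promoter of SHORT-ROOT, in the shr-2 mutant, so the 0 hr plants held the transgene and the mutation too. They were grown on half-strength MS medium at 22 °C in days of 16 h light and 8 h darkness, and 10 µM DEX was given at 10 days after germination (DAG). The other 6 arrays held shoots after 3, 12 and 24 hr of DEX, the last treated at 9 DAG. The 6 hr time was singled out because it had the most changed probe sets, so the size of its count is no separate result. No mock-treated arrays were part of these data, and DEX, time of day, handling and plant age cannot be told apart in the comparison with 0 hr. The fusion is made where the SHORT-ROOT promoter is active, whereas whole shoots were profiled.

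SHORT-ROOT (SHR), a transcription factor of the GRAS family, is made in the stele of the root, moves into the neighbouring cell layer and there directs the asymmetric division that forms cortex and endodermis. In leaves it is expressed around the veins and takes part in bundle sheath formation. A protein fused to the glucocorticoid receptor is held in the cytoplasm until DEX binds the receptor, after which it can enter the nucleus. DEX has no receptor of its own in plants. A rise or fall that comes from the fusion can follow directly from the factor or through genes that it controls. Without mock-treated arrays, such changes cannot be told apart here from those of DEX itself, time of day, handling or plant age.

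The values were signal intensities, 1 per probe set and array. Median signals of the 4 arrays lay between 189.8 and 191.7, and the correlation between the 2 replicates across probe sets was 0.9863 at 0 hr and 0.9909 at 6 hr. The 3′ to 5′ signal ratio of the actin control, a measure of RNA integrity and labelling, was 3.95 and 3.89 at 0 hr against 3.82 and 4.07 at 6 hr, and that of the GAPDH control was 1.25 and 1.39 against 1.17 and 1.32. These ratios overlapped between the groups. The highest signal on an array did not, at 30237 and 32471 at 0 hr against 25344 and 24862 at 6 hr. Nor did the 5S ribosomal RNA control, at 124 and 143 against 90 and 98, whereas the other ribosomal RNA control overlapped. The part of the lower highest signals in falls of bright genes was not tested beyond the quantile-normalized values given here. Of the 6 measured leaf and shoot markers, LHCB4.3 and YAB5 fell and 4 did not pass, where 8.01% of all named genes were called, with a median log2 difference of -0.31 that was -0.05 after quantile normalization. RCA, the activase of Rubisco, had signals of 22977 and 25490 at 0 hr and of 19141 and 18805 at 6 hr (adjusted p = 0.0664, limma). Of the markers of other cells, PYK10, a root and hypocotyl beta-glucosidase, was at 9091 and 9689 at 0 hr and at 9146 and 10598 at 6 hr, with no difference past the test (adjusted p = 0.76, limma). The root hair marker EXPA18 fell, as described with the expansins, and the meristem genes UFO and CLV3 stayed at or below a signal of 30 on all 4 arrays.

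After 6 hr, 2129 of 22746 probe sets (9.36%) differed from 0 hr at an adjusted p under 0.05 in limma, 1175 of them (5.17%) higher and 954 (4.19%) lower. With only the 4 arrays compared in the fit, the count was 1486, with 893 higher and 593 lower. Rises were larger than falls: 298 probe sets (1.31%) rose and 97 (0.426%) fell by at least 2-fold, and 55 rose and 0 fell by at least 4-fold. Fold changes are on the scale of log2(signal + 16), which understates changes of dim genes. The median log2 change was 0.63 among the higher and -0.48 among the lower probe sets, and -0.05 over all probe sets. The count rested on all 4 arrays, since it was 1097 and 1136 without control replicate 1 and 2, and 989 and 1174 without 6 hr replicate 1 and 2. The largest rise, 4.9 on the log2 scale, and the largest fall, -1.79, belonged to probe sets without a gene name in the probe table. Among 13356 genes named by a probe set of their own, 553 (4.14%) were higher and 517 (3.87%) lower, and the accounts below concern these genes. Each count of list or family members below is to be read beside these shares.

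**Figure D1:**
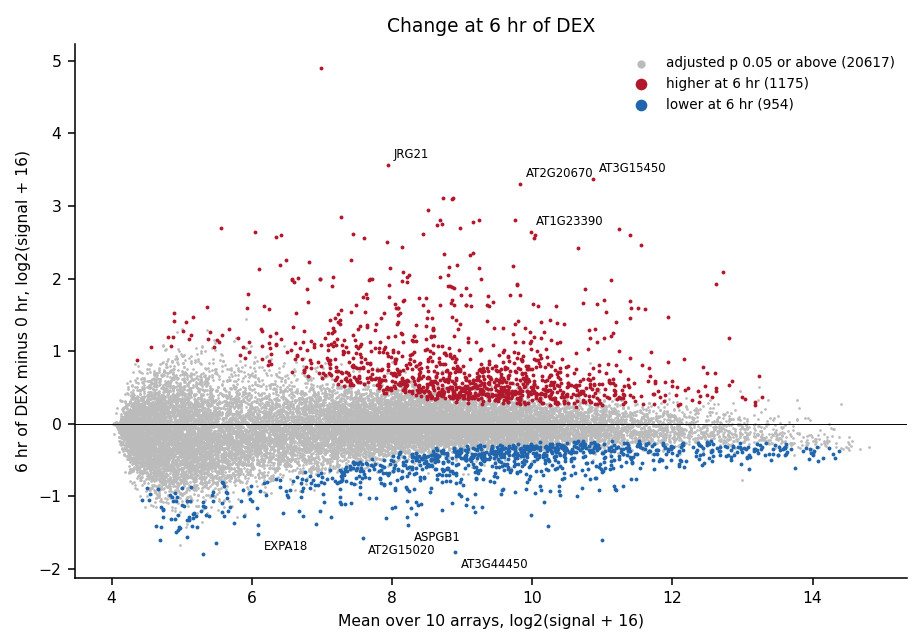
Difference between 6 hr of DEX and 0 hr, in log2(signal + 16), against the mean of log2(signal + 16) over 10 arrays, 1 point per probe set. Red points (1175) were higher and blue points (954) lower by limma, and the rises reach further from 0 than the falls.

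Of the SHR pathway list, which includes partners and relatives of its factors, 5 genes were measured, and none of them passed the test. AT5G41920 (SCL23), a close relative of SCARECROW, had signals of 166 and 182 at 0 hr and of 216 and 225 at 6 hr, with a log2 difference of 0.32 (SE 0.14, adjusted p = 0.198). Both 6 hr arrays were above both 0 hr arrays, by less than the fit could call. JKD, a zinc finger protein that binds SHR and SCARECROW in the root, was near background at 13.9 and 49.9 against 31.4 and 35.5. AT1G14580 was at 205 and 193 against 153 and 130, a log2 difference of -0.45 (SE 0.2, adjusted p = 0.203), and its difference from 3 hr was -0.86 (adjusted p = 0.0215). AT1G63100 and SLY2, an F-box protein of gibberellin signalling, differed by -0.17 (SE 0.16) and -0.01 (SE 0.23). SHR itself and SCARECROW were not analysed here, since the probe table names no probe set for them.

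Genes that respond to darkness and sugar shortage held 3 of the 6 largest rises. Of 9 measured genes on that list, 6 rose, 1 fell and 2 did not pass. The median log2 difference was 1.39 against -0.07 over all named genes, of which 8.01% were called in either direction. This list, like the others here, was chosen with earlier results of these data known. Its count and median thus describe it and are no test. AT3G15450 had signals of 575 and 637 at 0 hr and of 5997 and 6864 at 6 hr. AT2G20670 went from 269 and 260 to 2771 and 2744, and AT1G23390 from 398 and 353 to 2582 and 2285. In all 3 genes the groups were far apart, and the log2 differences were 3.37 (SE 0.11), 3.31 (SE 0.1) and 2.65 (SE 0.09), which correspond to 10.3-fold, 9.89-fold and 6.26-fold (adjusted p = 3.24e-08, 3.15e-08 and 3.18e-08, limma). In whole shoots, a change in the number of cells that express a gene and a change in RNA per cell cannot be told apart.

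AKINBETA1, a beta subunit of the energy-sensing kinase SnRK1, rose from 354 and 341 to 801 and 853 (log2 difference 1.21, SE 0.11, adjusted p = 5.29e-05). GAT1_2.1, a glutamine amidotransferase that is repressed by sugar and light, rose from signals near background of 12.6 and 38.2 to 151 and 176 (log2 difference 2.19, SE 0.28). A second probe set of the same gene, with signals near background, differed by -0.22 (SE 0.46, adjusted p = 0.833). AT3G15630 rose from 926 and 921 to 2575 and 2320 (1.39, SE 0.11). MGL, a methionine gamma-lyase, fell by 0.47 on the log2 scale (SE 0.1, adjusted p = 0.0177), a call that was lost without control replicate 2 or either 6 hr array, with adjusted p up to 0.136. The 6 rises held when any 1 of the 10 arrays was left out.

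Against 3 hr, the same list held 6 genes that were higher at 6 hr and 1 that was lower, with a median difference of 1.6, where 7.68% of all named genes were called, 4.28% higher and 3.41% lower. At 3 hr AT1G23390 had a mean signal of 392 against 375 at 0 hr, and AT3G15450 one of 825 against 606. The tested difference between 6 and 3 hr was 2.58 for AT1G23390 (adjusted p = 9.57e-08) and 2.94 for AT3G15450 (adjusted p = 1.26e-07). AT3G15450 was then lower at 12 hr, with the 6 hr arrays higher by 0.91 (adjusted p = 0.00163), while AT1G23390 differed from 12 hr by 0.35 (adjusted p = 0.0662). AKINBETA1 was lower again at 12 hr, at a mean of 458, and the difference from 6 hr was 0.83 (adjusted p = 0.00283).

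Genes of low oxygen, which in Arabidopsis are induced through group VII ERF factors, rose as well. Of 8 measured genes of that list, 6 rose, 0 fell and 2 did not pass, with a median log2 difference of 1.13. This list too was chosen with earlier results known. AT1G33055 was at 9.05 and 9.23 at 0 hr, near background, and at 165 and 119 at 6 hr (2.64, SE 0.22, adjusted p = 2.2e-05). AT3G10040 (HRA1), a trihelix protein that restrains the response to low oxygen, rose from 54.7 and 50.3 to 207 and 157 (1.52, SE 0.2, adjusted p = 0.000766). AT3G10020 rose from 825 and 729 to 1920 and 1860 (1.27, SE 0.08, adjusted p = 1.86e-06). These 3 genes were higher at 6 hr than at 3 hr, by 2.65, 1.86 and 0.96 on the log2 scale (adjusted p = 3.19e-05, 0.000206 and 2.56e-05). PDC2, a pyruvate decarboxylase and the fermentation enzyme on the list, was at 1415 and 1451 against 1545 and 1498 and did not pass (0.09, SE 0.07). The calls of AT4G24110 (0.99, SE 0.23) and AT3G27220 (0.59, SE 0.16) were lost without any 1 of the 4 arrays compared, with adjusted p up to 0.113 and 0.192.

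CML38, a calmodulin-like protein of the low oxygen list, is also a touch-response gene, and 4 of 10 measured touch and calcium genes rose while 0 fell. CML38 went from 33.2 and 31.7 to 161 and 185 (1.96, SE 0.2, adjusted p = 9.43e-05). AT4G27280 rose from 378 and 469 to 2311 and 2839 (2.56, SE 0.12), and STZ, a zinc finger repressor induced by many stresses, from 251 and 230 to 1235 and 1362 (2.36, SE 0.13). For both genes the 2 groups were far apart, and both were higher at 6 hr than at 3 hr, by 2.41 and 2.22. The calmodulin-like CML41 passed by little (0.54, SE 0.15, adjusted p = 0.0496) and lost its call without any 1 of the 10 arrays. AT1G76640 (CML39) lay between 2.59 and 4.41 on all 4 arrays and at a mean of 47.4 at 3 hr.

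The largest rise of a named gene was that of JRG21, a jasmonate-regulated oxygenase that inactivates jasmonic acid. Its signals were 45.1 and 59.1 at 0 hr and 822 and 747 at 6 hr, an 11.8-fold rise (log2 difference 3.56, SE 0.16, adjusted p = 1.57e-07). Of 9 jasmonate genes, 4 rose and 1 fell, with a median of 0.53. OPCL1, a ligase in the synthesis of jasmonate, rose from 372 and 346 to 663 and 550 (0.73, SE 0.12, adjusted p = 0.0036), and THI2.2, a thionin, fell from 502 and 536 to 298 and 305 (-0.75, SE 0.12, adjusted p = 0.00202). THI2.2 also belongs to a list of 17 measured pathogenesis-related, defensin and thionin genes. Of these, 2 rose and 2 fell, and AT1G66100 rose most, by 2.62. The lectin genes JAL23 (0.72, SE 0.14) and JAL34 (0.53, SE 0.15) of the jasmonate list rose too. The call of JAL23 was lost without either control array or 6 hr replicate 1, and that of JAL34 without any 1 of the 0, 3, 6 and 12 hr arrays, with adjusted p up to 0.0879 and 0.261.

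Several cold and dehydration genes stood higher at 3 hr than at 6 hr. Among 13 such genes there were 5 rises and 2 falls, and 6 genes stayed short of the threshold, while the list's median was -0.1, of opposite sign to most of its calls. Against 3 hr, 1 gene was higher and 5 were lower. COR15A, a protein that protects chloroplast membranes in the cold, had signals of 971 and 1054 at 0 hr and of 5661 and 6769 at 6 hr (2.59, SE 0.15, adjusted p = 1.33e-06). At 3 hr its mean was 15314, and the fall from 3 to 6 hr was tested at -1.3 (adjusted p = 0.000357). LTI30, a dehydrin, rose from 116 and 94.1 to 491 and 508 (2.1, SE 0.16) and differed from 3 hr by -1.45 (adjusted p = 0.00026). COR15B and the dehydrin COR47 followed with 1.01 (SE 0.13) and 0.48 (SE 0.08), with differences from 3 hr of -1.11 and -0.37 (adjusted p = 0.000292 and 0.0125). COR27, a cold-induced gene that also acts in the clock, differed from these in being higher at 6 than at 3 hr, by 0.51 (adjusted p = 0.00528), with 487 and 454 at 0 hr and 822 and 755 at 6 hr. The late embryogenesis genes AtLEA4-1 (-0.9, SE 0.24) and AT2G46140 (LEA27, -0.63, SE 0.16) fell, and both calls were lost without any 1 of the 4 arrays compared or of the 12 hr arrays.

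**Figure D2:**
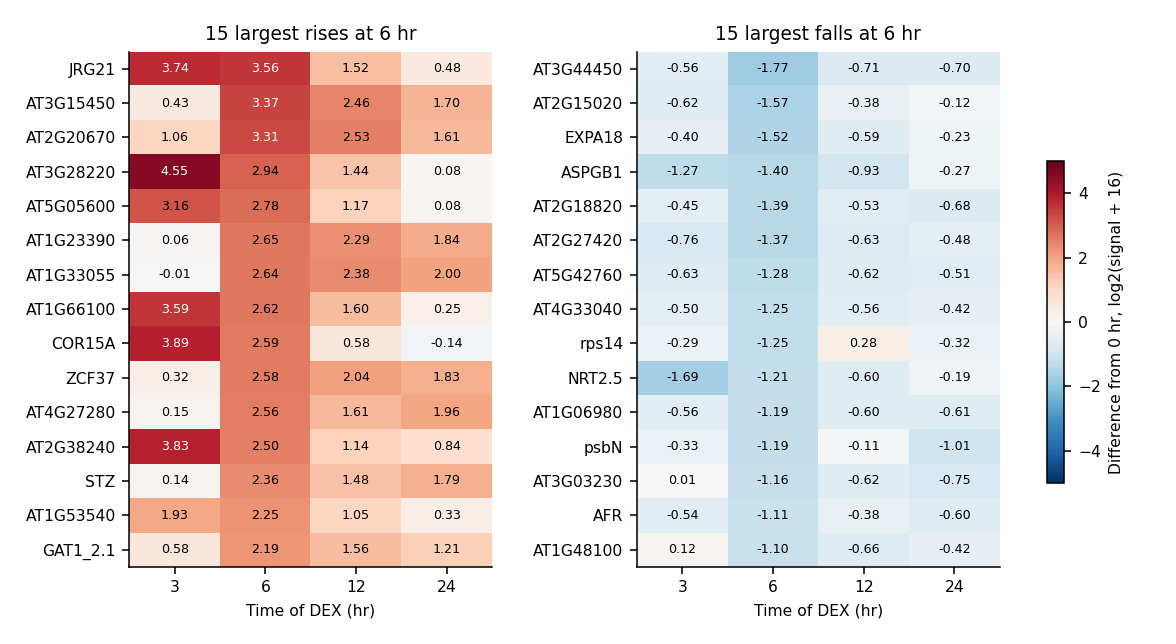
Difference from 0 hr in log2(signal + 16) at 3, 6, 12 and 24 hr of DEX for the 15 largest rises (left) and 15 largest falls (right) at 6 hr, each value a difference of means of 2 arrays. AT3G28220, AT5G05600, AT1G66100, COR15A and AT2G38240 stood higher at 3 hr than at 6 hr, while AT1G23390, AT1G33055, AT4G27280 and STZ were near 0 at 3 hr. All times share the same 2 control arrays.

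Among the 20 largest rises, 12 were higher at 6 hr than at 3 hr, 6 were lower and 2 did not pass that test. The 20 were picked by their 6 hr values, which also enter this comparison and favour higher levels at 6 hr, so the split is no test. Against 0 hr, 12 of the 20 were also called higher at 3 hr, 17 at 12 hr and 12 at 24 hr. ZCF37 rose from 22.2 and 10.1, near background, to 179 and 167 (2.58, SE 0.29). AT1G72940 rose from 201 and 194 to 918 and 962 (2.16, SE 0.1), and AT1G72900 from 207 and 222 to 1005 and 873 (2.05, SE 0.11). AR781 went from 171 and 205 to 839 and 784 (2.02, SE 0.12). AT1G53540 differed from these in having risen by 3 hr, with a difference of 0.32 between 6 and 3 hr that did not pass (adjusted p = 0.517). AT4G10910 closed the 20 with 46.6 and 49.3 against 245 and 231 (1.99, SE 0.17). All 20 calls held when any 1 of the 10 arrays was left out.

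**Figure D3:**
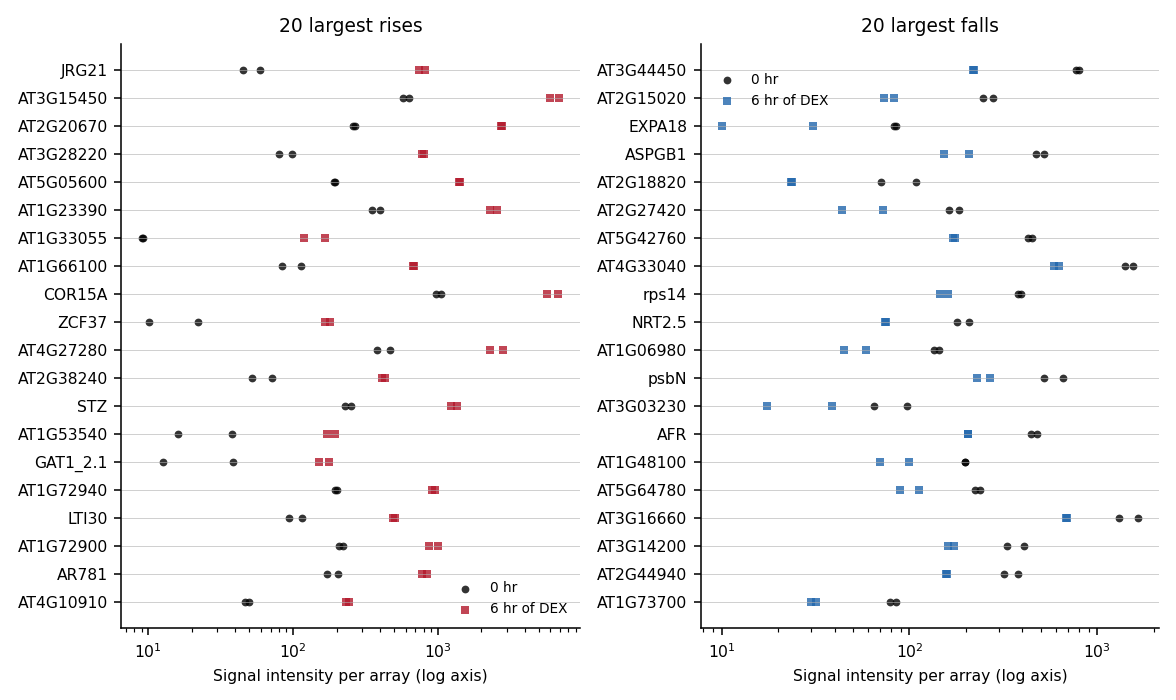
Signal intensity (log axis) on each of the 2 arrays at 0 hr (black circles) and the 2 arrays at 6 hr of DEX (coloured squares) for the 20 genes with the largest rises (left) and falls (right). In every one of these genes the groups do not overlap, which the rule for naming them required.

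The falls were led by AT3G44450 and AT2G15020, both from the list of photoreceptors and light signalling. AT3G44450 had signals of 767 and 803 at 0 hr and of 221 and 217 at 6 hr, a 3.41-fold fall (log2 difference -1.77, SE 0.09, adjusted p = 4.01e-07). AT2G15020 fell from 248 and 277 to 83 and 72.8 (-1.57, SE 0.16). Both were lower at 6 hr than at 3 hr, with differences of -1.21 and -0.95, and lower than at 12 hr, with differences of -1.06 and -1.19 (adjusted p between 1.13e-05 and 0.00392). Of the 6 genes of that list 1 rose, which was HAT2, a homeodomain protein of shade avoidance, from 448 and 437 to 639 and 713 (0.59, SE 0.08, adjusted p = 0.00112). AFR, an F-box protein of far-red light signalling, fell from 476 and 444 to 204 and 204 (-1.11, SE 0.11, adjusted p = 7.48e-05).

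Other large falls were those of ASPGB1, an asparaginase that releases ammonium from asparagine, and of NRT2.5, a high-affinity nitrate transporter. ASPGB1 fell from 520 and 473 to 153 and 208 (-1.4, SE 0.15, adjusted p = 0.000184). NRT2.5 fell from 179 and 207 to 74.8 and 74 (-1.21, SE 0.19, adjusted p = 0.00212). Neither differed from its 3 hr level beyond the test (adjusted p = 0.692 and 0.146). AT4G33040 fell from 1398 and 1542 to 587 and 628 (-1.25, SE 0.08), and AT5G42760 from 449 and 429 to 174 and 170 (-1.28, SE 0.14). Of the 20 largest falls, 14 held when any 1 array was left out. The calls lost were those of AT2G18820, AT1G06980, psbN, AT3G03230, AT2G44940 and AT1G73700, each without at least 1 of the 4 arrays compared, with adjusted p up to 0.276 for AT3G03230.

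Of 7 measured WRKY factors, 2 rose and 0 fell. WRKY53, a regulator of leaf senescence, rose from 104 and 94.4 to 294 and 332 (1.51, SE 0.16, adjusted p = 0.000131) and was higher than at 3 hr by 1.52 and than at 12 hr by 1.29, so that it stood high at 6 hr on either side. WRKY22 rose from 142 and 125 to 242 and 247 (0.8, SE 0.15), with adjusted p = 0.0521 without control replicate 2. Of 13 bHLH factors, 2 rose and 1 fell. BHLH101, which acts in the response to iron shortage, rose from 28.6 and 57 to 202 and 181 (1.86, SE 0.23, adjusted p = 0.000445). Of 23 bZIP factors, 2 rose and 1 fell, so that 13% were called, against 8.01% of all named genes. BZIP53, a factor of amino acid metabolism under energy shortage, rose from 1578 and 1645 to 3011 and 2652 (0.8, SE 0.07, adjusted p = 5.15e-05), and bZIP44 fell from 1306 and 1348 to 1004 and 924 (-0.46, SE 0.07, adjusted p = 0.00297). Of 42 MADS-box genes only 7 were above the 30th percentile of signal, and 1, the dim AGL28, was called.

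Of 5 gibberellin genes 2 rose, and of 5 GH3 genes 1 rose. GID1A and GID1B, gibberellin receptors, rose by 0.44 (SE 0.12) and 0.62 (SE 0.17), with adjusted p = 0.0456 and 0.0426, and both calls were lost without any 1 of the 4 arrays compared. WES1, a GH3 enzyme that joins auxin to amino acids, rose from 447 and 482 to 640 and 753 (0.56, SE 0.1, adjusted p = 0.00498), with adjusted p up to 0.0523 without control replicate 1 or 6 hr replicate 2. None of 7 Aux/IAA genes and none of 6 cytokinin response genes was called, and 3 and 2 of them were above the 30th percentile of signal.

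Cell wall genes moved in both directions. Expansins, which loosen the wall during growth, had more falls than rises: of 19 measured, 7 fell, 1 rose and 11 did not pass, with a median of -0.37. EXPA15 fell from 672 and 679 to 335 and 327 (-0.99, SE 0.08, adjusted p = 2.4e-05), EXPB3 from 2021 and 1911 to 1131 and 1202 (-0.75, SE 0.08, adjusted p = 0.000189). EXPA8 fell from 699 and 635 to 373 and 377 (-0.8, SE 0.11), with a mean at 3 hr of 246, below that at 6 hr (difference 0.58, adjusted p = 0.00721). EXPA4 fell by 0.62 (SE 0.07). EXPA18, a root hair expansin, fell from 85.2 and 82.5 to 30.8 and 10, near background (-1.52, SE 0.28, adjusted p = 0.00599). The exception was EXLA1, an expansin-like gene, which rose from 262 and 204 to 492 and 483 (1.03, SE 0.15, adjusted p = 0.00119). Without any 1 of the 4 arrays compared, EXPB1 and EXLB1 lost their calls, and the other 6 calls held with any array left out.

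Enzymes that cut and rejoin xyloglucan (XTH) rose in 3 of 10 cases and fell in 0. EXGT-A3, known as XTH27, rose from 1619 and 1685 to 3694 and 3990 (1.21, SE 0.08, adjusted p = 3.02e-06) and was higher than at 3 hr by 0.72 and than at 12 hr by 0.91. XTH19 rose by 0.54 (SE 0.12), a call lost without control replicate 2 or either 6 hr array, with adjusted p up to 0.097. XTH16 rose from 496 and 514 to 746 and 807 (0.6, SE 0.1, adjusted p = 0.003). Of 8 pectin enzymes, 2 rose, both pectin methylesterases: ATPMEPCRB from 171 and 140 to 343 and 327 (1.04, SE 0.13, adjusted p = 0.000599) and PMEPCRF from 567 and 691 to 960 and 952 (0.6, SE 0.1). The receptor-like kinase THE1, which monitors the wall, rose from 210 and 204 to 586 and 430 (1.22, SE 0.14, adjusted p = 0.000247). GH9C2, an endoglucanase, fell from 1392 and 1466 to 733 and 723 (-0.96, SE 0.09, adjusted p = 4e-05). In the cellulose synthase family 3 of 12 genes rose, CSLA03, CSLC04 and CSLD2, and all 3 calls were lost without any 1 of the 4 arrays compared.

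Among enzymes that attach sugars to small molecules, 10 of 52 UDP-glycosyltransferases rose, 0 fell and 42 did not pass. Of all named genes, 4.14% were higher and 3.87% lower. UGT73B1, a flavonoid glucosyltransferase, rose from 197 and 133 to 465 and 533 (1.53, SE 0.16, adjusted p = 0.000121). UGT85A2 rose from 385 and 370 to 776 and 661 (0.9, SE 0.12), UGT88A1 from 1182 and 1318 to 2195 and 2112 (0.78, SE 0.09) and UGT85A4 from 218 and 196 to 349 and 333 (0.68, SE 0.12). These 4 calls held with any array left out and the other 6 did not. The family's median was 0.05, and 30 of the 52 genes were above the 30th percentile of signal. None of 14 glutathione transferases was called, and 1 of 22 cytochromes P450, CYP71B23, rose from 137 and 129 to 291 and 271 (1, SE 0.17, adjusted p = 0.00392). With 8.01% of all named genes called, these counts do not set either family apart.

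Genes of primary metabolism gave a few modest changes. ALDH7B4, an aldehyde dehydrogenase of stress and lysine breakdown, rose from 1800 and 1794 to 2563 and 2937 (0.61, SE 0.08, adjusted p = 0.000977). ATG8E, a protein of the autophagosome membrane, rose from 697 and 567 to 1289 and 1126 (0.92, SE 0.14, adjusted p = 0.00229), whereas its relative ATG8C fell from 1339 and 1263 to 996 and 956 (-0.41, SE 0.08, adjusted p = 0.0121). The call of ATG8C was lost without control replicate 1 or either 6 hr array, with adjusted p up to 0.0911. MCCB, a subunit of the carboxylase that breaks down leucine, rose by 0.43 (SE 0.08), with adjusted p up to 0.0844 without control replicate 2 or 6 hr replicate 1. In the respiratory list 1 of 19 genes rose and in that of starch 0 of 7 were called, shares below the 8.01% of all named genes.

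Among transport genes, SWEET13, a sucrose exporter, fell from 487 and 552 to 260 and 267 (-0.94, SE 0.11, adjusted p = 0.000227), and was the 1 called gene of 16 SWEET genes. SWEET11, the exporter that loads the phloem, was at 11079 and 11642 against 9486 and 9399 and did not pass (-0.27, SE 0.09, adjusted p = 0.0949). AT1G68570 (NPF3.1), a transporter of the nitrate and peptide family, rose from 732 and 700 to 1207 and 1226 (0.75, SE 0.07, adjusted p = 4.64e-05). Of the 10 iron and metal genes 2 rose and 1 fell, among them CCS, the copper chaperone of superoxide dismutase, from 235 and 187 to 353 and 364 (0.73, SE 0.12, adjusted p = 0.00369).

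Nuclear genes of photosynthesis fell in small numbers. LHCB4.3, an antenna protein of photosystem II, fell from 3809 and 3686 to 2029 and 2381 (-0.77, SE 0.09, adjusted p = 0.000217), while LHCB4.2 was at 7358 and 8139 against 7923 and 7601. Of 10 nuclear subunits of the photosystems and the chloroplast NDH complex, NdhN fell from 3279 and 3487 to 2605 and 2454 (-0.42, SE 0.07, adjusted p = 0.00348) and PSAN by 0.43 (SE 0.1). PSAN, the Calvin cycle enzyme SBPASE (-0.43, SE 0.09) and the assembly factor PSB27 (-0.56, SE 0.13) had signals of at least 6840 on all 4 arrays. After quantile normalization their adjusted p-values were 0.176, 0.0509 and 0.0508, and each call was also lost without at least 3 of the 4 arrays compared. PORB, which makes chlorophyllide in the light, rose from 6000 and 5345 to 8966 and 8201 (0.6, SE 0.09, adjusted p = 0.00135).

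Of 69 transcripts encoded in the plastid, 22 fell and 1 rose, 46 were not called, and the median was -0.19. Of all named genes, 3.87% were lower. rps14, a ribosomal protein, fell from 380 and 392 to 161 and 146 (-1.25, SE 0.11, adjusted p = 2.54e-05), and rpl20 from 494 and 497 to 281 and 315 (-0.71, SE 0.09, adjusted p = 0.000617). Among genes of photosynthesis, petN, a subunit of the cytochrome b6f complex, fell from 600 and 729 to 302 and 362 (-0.97, SE 0.11, adjusted p = 0.000322). psbB and psbK, of photosystem II, fell from 490 and 449 to 268 and 256 (-0.8, SE 0.09) and from 1971 and 1777 to 1124 and 1082 (-0.75, SE 0.11). By complex, 5 of 15 photosystem II genes, 3 of 7 of photosystem I and 4 of 10 of the NDH complex were lower. So were 5 of 13 of cytochrome b6f, ATP synthase and Rubisco, and 2 of 19 of the ribosome and polymerase. Among the genes of these complexes, only psbB, psbK, petN, rps14 and rpl20 kept their calls with any 1 array left out. No call of photosystem I or of the NDH complex held in this way. rbcL, the large subunit of Rubisco, differed by 0 (SE 0.08, adjusted p = 0.989).

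Neighbours in the plastid genome differed from each other. In the psbB cluster, psbB fell, psbT did not pass (-0.28, SE 0.21), psbN, which lies on the opposite strand, fell from 657 and 524 to 229 and 269 (-1.19, SE 0.21), and psbH rose from 1442 and 1456 to 2195 and 1738 (0.43, SE 0.11, adjusted p = 0.0365). petB next to it differed by 0.06 (SE 0.12), and petD fell from 217 and 185 to 96.6 and 109 (-0.87, SE 0.17). The calls of psbN, psbH and petD were lost without control replicate 1 or 6 hr replicate 1, and that of psbH also without control replicate 2 or either 12 hr array, with adjusted p up to 0.0602, 0.253 and 0.0863. The falls were more frequent among dim plastid genes: of the 34 with the lower mean signals over all 10 arrays 16 fell, and of the 35 brighter ones 6 fell, with medians of -0.46 and -0.04. Signal level thus moved with the falls, and its part in them was not tested. Of the 11 genes encoded in mitochondria, nad4L rose by 0.67 (SE 0.16, adjusted p = 0.0287), and that call was lost without any 1 of the 4 arrays compared.

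**Figure D4:**
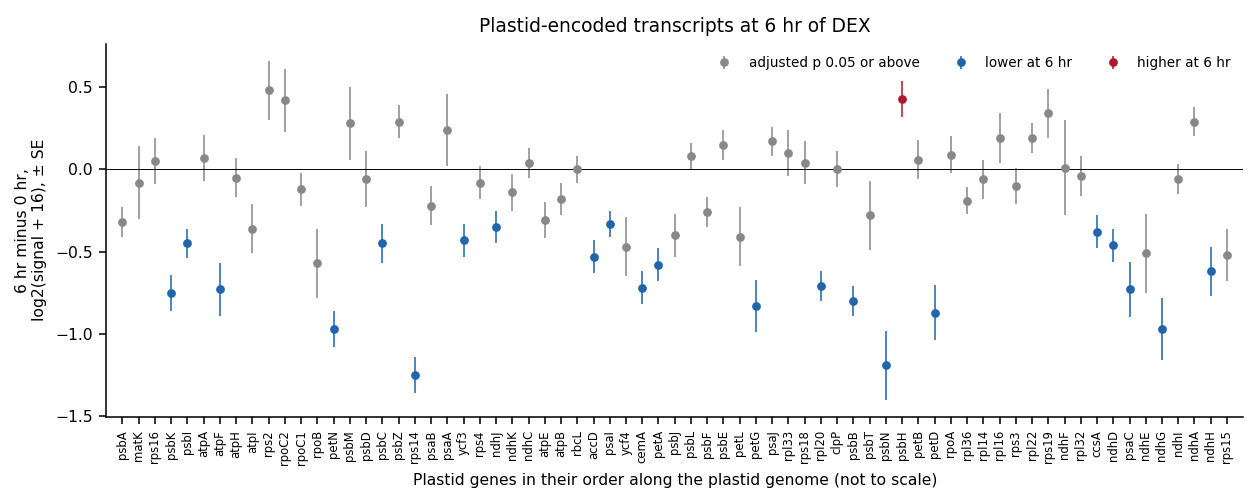
Difference between 6 hr of DEX and 0 hr in log2(signal + 16), with its SE from the fit over 10 arrays, for 69 plastid genes in their order along the plastid genome. Blue genes (22) were lower and the red one, psbH, was higher, and lower genes are scattered among neighbours that did not pass the test.

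Among 12 cell cycle genes there were 2 falls and 0 rises, where 3.87% of all named genes were lower, and the median was -0.3. The Aurora kinases AUR2 and AUR1 fell from 383 and 407 to 231 and 230 (-0.73, SE 0.12, adjusted p = 0.00311) and from 497 and 519 to 351 and 348 (-0.52, SE 0.09, adjusted p = 0.00459). AUR3 was at 101 and 113 against 66.7 and 87.4 and did not pass (-0.41, SE 0.19, adjusted p = 0.222). Of 20 histone and chromatin genes, the H2B genes HTB2 (-0.38, SE 0.09) and HTB1 (-0.32, SE 0.07) fell and HON4 rose (0.3, SE 0.08), and each of these 3 calls was lost without at least 3 of the 4 arrays compared. Of 27 developmental regulators 1 rose, which was ARL, and 2 fell. RALFL34, a secreted peptide, fell from 5319 and 5501 to 3633 and 3998 (-0.5, SE 0.08, adjusted p = 0.00241), and the leaf polarity gene YAB5 from 564 and 575 to 446 and 403 (-0.41, SE 0.1, adjusted p = 0.0227), the latter lost without any 1 of the 4 arrays compared. YAB3 was at 527 and 521 against 541 and 504.

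Some families gave single changes. TET8, a tetraspanin of extracellular vesicles, rose from 778 and 961 to 1623 and 1745 (0.95, SE 0.12, adjusted p = 0.000444) and was the 1 called gene of 15 tetraspanins. MSRB9, a methionine sulphoxide reductase, rose from 345 and 314 to 509 and 469 (0.55, SE 0.09, adjusted p = 0.00355). Hsp70-2, a cytosolic chaperone, fell from 652 and 718 to 470 and 424 (-0.6, SE 0.1, adjusted p = 0.00253). The clock list held 2 rises in 6 genes, COR27 and AT4G33980, the latter from 251 and 293 to 585 and 591 (1.07, SE 0.18, adjusted p = 0.00348). GI, a clock gene with a daily peak late in the day, was at 571 and 545 against 548 and 605 (0.04, SE 0.09, adjusted p = 0.819). None of the 13 ESCRT, 7 exocyst, 11 PRA1, 10 NET and 6 LSM genes was called. With 8.01% of all named genes called, an absence of calls in lists this short does not set these families apart.

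**Figure D5:**
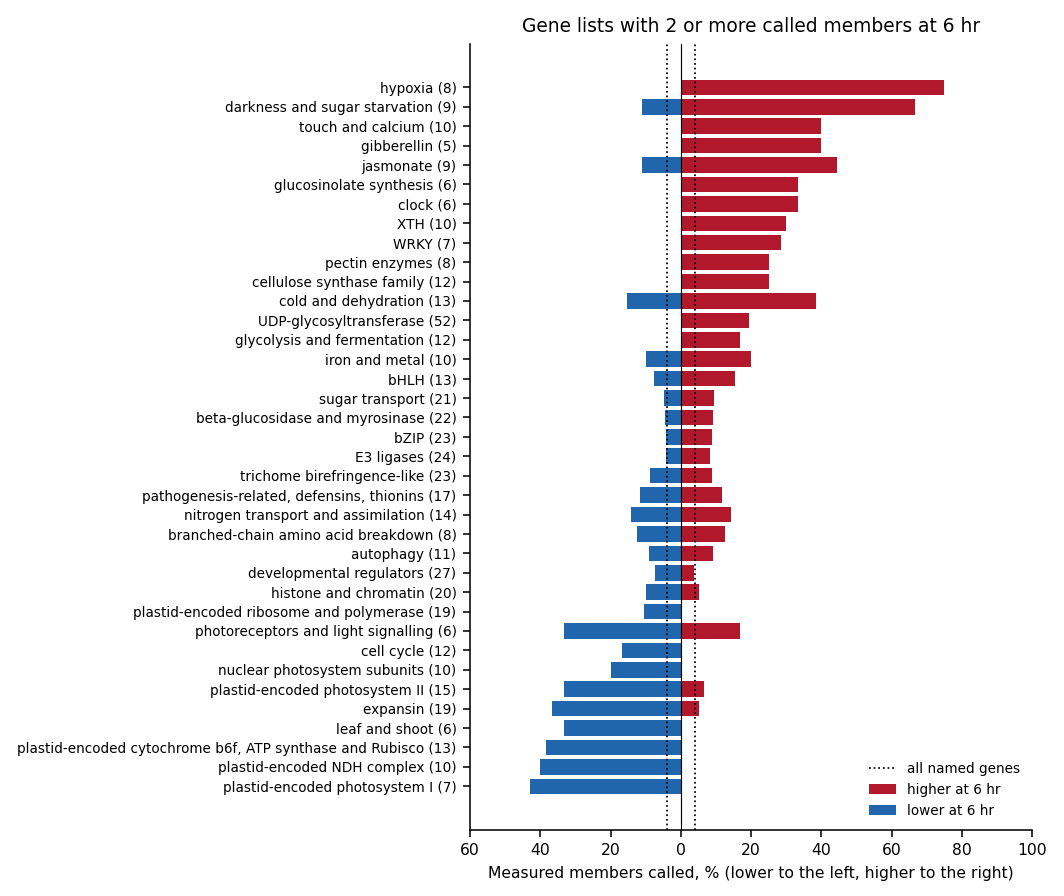
Share of measured members, in %, that were higher (red, to the right) or lower (blue, to the left) at 6 hr of DEX than at 0 hr. Shown are those of the 98 gene lists drawn up first with at least 5 measured genes (number in parentheses) and at least 2 called. The 34 lists added later are not shown. The dotted lines mark the shares of all named genes, 4.14% higher and 3.87% lower. The lists for hypoxia and for darkness and sugar starvation lie at the top and the plastid-encoded NDH complex and photosystem I at the bottom.

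Set directly against 3 hr, the 6 hr arrays differed in 2080 probe sets (9.14%), 1173 higher (5.16%) and 907 lower (3.99%). With the arrays scaled to a common median the split was 958 higher and 1349 lower, so which direction prevailed depended on the scaling. The count fell to 1167 and 1199 without 3 hr replicate 1 and 2, and to 959 and 1126 without 6 hr replicate 1 and 2. Some of the largest differences lay outside the genes named so far. SIS, a serine-rich gene induced by salt, had signals of 63.7 and 109 at 3 hr and of 434 and 562 at 6 hr (2.35, adjusted p = 4.48e-05). AT4G16000 was at 4.82 and 2.29 at 3 hr, near background, and at 99 and 94.1 at 6 hr (2.53, adjusted p = 0.000317). In the other direction, AT3G51450 went from 2213 and 1783 at 3 hr to 460 and 552 at 6 hr (-1.94, adjusted p = 3.46e-05), and AT1G54020 from 555 and 532 to 157 and 168 (-1.65, adjusted p = 0.000116).

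Against 12 hr, 543 probe sets (2.39%) differed, 381 of them (1.68%) higher at 6 hr and 162 (0.712%) lower. The count was 174 and 209 without 6 hr replicate 1 and 2, and 152 and 146 without 12 hr replicate 1 and 2. The largest rises were those of JRG21 (2.04, adjusted p = 9.86e-05), COR15A (2.01, adjusted p = 9.86e-05) and AT5G05600 (1.61, adjusted p = 1.11e-05). Of the 8 largest named falls 7 were plastid genes, led by rps14, which stood at 161 and 146 at 6 hr and at 489 and 458 at 12 hr (-1.53, adjusted p = 6.29e-05). petG was at 137 and 121 against 373 and 341 (-1.36, adjusted p = 0.00103), and psbB at 268 and 256 against 602 and 627 (-1.18, adjusted p = 0.000115). AT2G32030, AT1G05575 and AT3G55840 were higher at 6 hr than at 0, 3 and 12 hr, AT2G32030 with 154 and 145 at 6 hr and signals between 28 and 49.7 at those other times. The call of AT3G55840 against 0 hr was lost without any 1 of the 4 arrays compared, with adjusted p up to 0.12.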

How the data were processed

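The deposited values were signal intensities from Affymetrix ATH1 arrays, which the authors made with MAS5 in version 1.1 of Affymetrix Expression Console, as the submitters' processing notes name them, with a trimmed mean of 500 on every array. Of 22810 probe sets, 64 controls were left out. The remaining 22746 were put on the scale of log2(signal + 16) and fitted in limma 3.58.1 (R 4.3.3) with a mean per group over all 10 arrays and an intensity trend (5 residual and 5.86 prior degrees of freedom). Two-sided p-values were adjusted by Benjamini-Hochberg across these probe sets, with a threshold of 0.05. The script was tested on simulated data.

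The probe table gave 1 gene for 13513 probe sets, several for 503 and none for 8730. A gene was read at its brightest probe set, which gave 13356 genes, 11799 of them known by locus only. Gene lists numbered 132, of which 117 had a measured member (1016 genes). The text names the 20 largest rises and falls among called genes above the 30th percentile of signal whose 6 hr and control arrays did not overlap, the 8 largest each way against 3 and 12 hr, and list members. The members and lists were chosen with earlier results of these data known. The 2 arrays of a group were biological replicates per the series' design text, and p-values measure only the spread between such replicates. Replicate numbers were not used to pair the arrays in the main fit. Same-numbered arrays shared little deviation, with correlations between -0.036 and 0.088. These values do not show how the arrays were grown or handled. Alternatives covered the offset, scaling, filter, trend, samples in the fit, replicate block and each array left out. Promoter motifs were not analysed here.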

Additional observations from a re-analysis of the deposited data

Results flagged for a closer look

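The level at 6 hr differed from that at 3 hr in 2080 probe sets and from that at 12 hr in 543, each by a direct limma test of the difference. In 47 of 22746 probe sets the changes against 0 hr were called in opposite directions at 3 and 6 hr and the difference between the times was called too. Of these, 42 were lower at 3 hr and higher at 6 hr, and 5 the reverse. This split was counted under the main scaling only. The 3 hr arrays had median signals of 184.9 and 181.8, against 189.8 and 191.7 at 6 hr. Which direction prevailed between these times depended on the scaling. ARL, a regulator of organ size, was one of the 42 that were higher at 6 hr. Its signals were 1339 and 1347 at 0 hr, 849 and 923 at 3 hr and 1742 and 1564 at 6 hr, and its tested difference between 6 and 3 hr was 0.89 on the log2 scale (adjusted p = 5.34e-05). Its rise against 0 hr was small (0.29, adjusted p = 0.0443) and was lost when single arrays were left out.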

How the results depend on the processing

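The count of probe sets changed against 0 hr, 2129, was 1216 without the intensity trend and between 989 and 2297 when single arrays were left out. Against 3 hr, the count of 2080 was 1099 without the trend, 1239 with only the 2 groups in the fit and between 959 and 2245 with single arrays left out. Against 12 hr, the count of 543 was 177 without the trend and between 146 and 591. The 155 called list members (89 higher, 66 lower) numbered between 89 and 170 with single arrays left out, and 70 were called in every such fit. With the replicate block, the counts were 1934, 1888 and 460 probe sets and 149 list members. Of the 176 called genes picked by the naming rule, 0 changed sign under the alternatives in which they were fitted (173 of them without the lowest 30% of signals). With only the 2 groups in the fit, 136 of them were still called. Of the 176, 106 and 109 were still called without control replicate 1 and 2, 107 and 109 without 6 hr replicate 1 and 2, 122 without the trend and 164 after quantile normalization. Scaling to a common median turned the split against 3 hr from 56.4% to 41.5% higher, and it was 54.8% against 55.2% for the comparison with 0 hr. Only 2 arrays per group and the signal of dim genes near background limit the precision.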

Other observations

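Some genes of RNA polymerases and of protein folding in the endoplasmic reticulum were lower at 6 hr than at 3 hr by the direct limma test, in which 3.41% of all named genes were lower and the split of higher and lower calls depended on the scaling. Of 12 measured RNA polymerase genes, 0 were called against 0 hr, and 4 were lower at 6 hr than at 3 hr. These were NRPB7, NRPB6A, NRPA1 and NRPA2, with differences between -0.44 and -0.46 on the log2 scale. Of 9 chaperones of the endoplasmic reticulum, 0 were called against 0 hr, and OS9, ATERDJ3B and CRT1b were lower at 6 hr than at 3 hr, with differences of -0.3, -0.49 and -0.6.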
